A study of Mus musculus with 12 samples.

Results

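The microRNA (miRNA) miR-486 was followed in mouse thigh muscle through postnatal growth. Its 4 mature products in the count table, mmu-miR-486a-5p, mmu-miR-486a-3p, mmu-miR-486b-5p and mmu-miR-486b-3p, were selected by name out of 1966 mature miRNAs. The small RNA libraries came from quadriceps of C57BL/6J wild-type animals aged 1, 5, 14 and 90 days after birth (P1, P5, P14 and P90), with 3 libraries per age. No treatment is listed for any age. The P90 mice were adults. The study's methods give separate mice for each age, so the spread between libraries covers animals and library preparation together. Whole muscle was used, and in such bulk RNA a smaller number of expressing cells and less RNA per cell cannot be told apart.

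miR-486 is encoded in an intron of Ank1, the gene for the membrane skeleton protein ankyrin 1, and muscle uses an internal Ank1 promoter close to it. It is enriched in striated muscle, where it is known to repress Foxo1, a transcription factor that promotes muscle atrophy, and Pax7, a transcription factor of muscle stem cells. It is also abundant in red blood cells and their precursors, which reach a muscle sample with its blood. The miR-486a and miR-486b hairpins are read from opposite strands of one locus, and their 5p products are known to carry the same sequence.

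On GRCm38.p6, the hairpin of miR-486a (Mir486) lies at chr8:23142555-23142682 on the plus strand, and the 90 bp hairpin of miR-486b (Mir3107) lies wholly inside it at chr8:23142573-23142662 on the minus strand. Ank1 spans chr8:22974836-23150501 on the plus strand. In the GENCODE vM39 gene models, Mir486 was intronic in all 15 Ank1 transcripts that span it, and the intron was the last in 14 of them. Mir3107 was intronic in 3 of 3 spanning transcripts of Gm15816, a long noncoding RNA gene on the minus strand at chr8:23138789-23149703.

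Other miRNAs are used below for comparison, and their annotated mature sequences are listed here. They were taken from RefSeq on GRCm38.p6. Of the 4 miR-486 products, the 5 miRNAs with the most similar profile and the 3 defining red blood cell miRNAs, 7 of 12 in all matched an entry. Letters run 5′ to 3′ with the seed (bases 2 to 8) in capitals. All 7 seeds differ. miR-133a-3p belongs to the similar profiles and is given by name.
miR-365-3p: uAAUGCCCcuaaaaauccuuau
miR-378d: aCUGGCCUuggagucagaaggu
miR-149-5p: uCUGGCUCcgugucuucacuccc
miR-378c: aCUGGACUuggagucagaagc
miR-451a: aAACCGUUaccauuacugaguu
miR-144-3p: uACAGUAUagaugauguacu
miR-144-5p: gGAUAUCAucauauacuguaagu

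Library totals ranged from 20363495 counts at P14 to 53126984 at P90. The P90 libraries stood apart in composition. Rows for miR-1a-3p and its antisense partner miR-1b-5p held 79.6 to 85.3% of their counts, compared with 24.2 to 46.3% of the counts of the younger libraries. The trimmed mean of M values (TMM) factors, which scale each library by the bulk of its miRNAs, were 0.247 to 0.384 at P90 and 1.24 to 1.73 at the other ages. Levels are therefore given both as CPM, the count divided by the library total on the usual scale of 1e+06 reads, and as normalized CPM, which refer to the TMM-scaled total.

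The 4 products were nearly a single measurement. The counts of miR-486a-5p and of miR-486b-3p, which face each other across the strands, were equal in 11 of 12 libraries and differed by 3 reads in the remaining one. miR-486b-5p exceeded miR-486a-3p by 2 to 39 reads, at most 0.0357%. Facing arms of other opposite-strand hairpins behaved alike in the table, since 14 of 17 pairs compared stayed within 1% in all 12 libraries. The strand of origin of a miR-486 read was therefore not resolved in these counts, and the 4 products are not independent observations.

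The counts at the 2 arm positions of miR-486a also stayed close to each other. miR-486a-3p was above miR-486a-5p in 12 of 12 libraries, and the ratio of 5p to 3p counts ranged from 0.916 to 0.999. The mean ratio of the 3 libraries was 0.978 ± 0.010 (SD) at P1 and 0.978 ± 0.012 at P14, compared with 0.962 ± 0.042 at P5 and 0.930 ± 0.0064 at P90. The P5 libraries alone ranged from 0.916 to 0.999, which included the values of all the other ages. Because the 5p sequence is shared by both hairpins, a read of it may be placed on either strand and so at either arm position. The ratio therefore cannot measure the abundance of the arms, and which arm the reads came from was not tested.

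**Figure D1:**
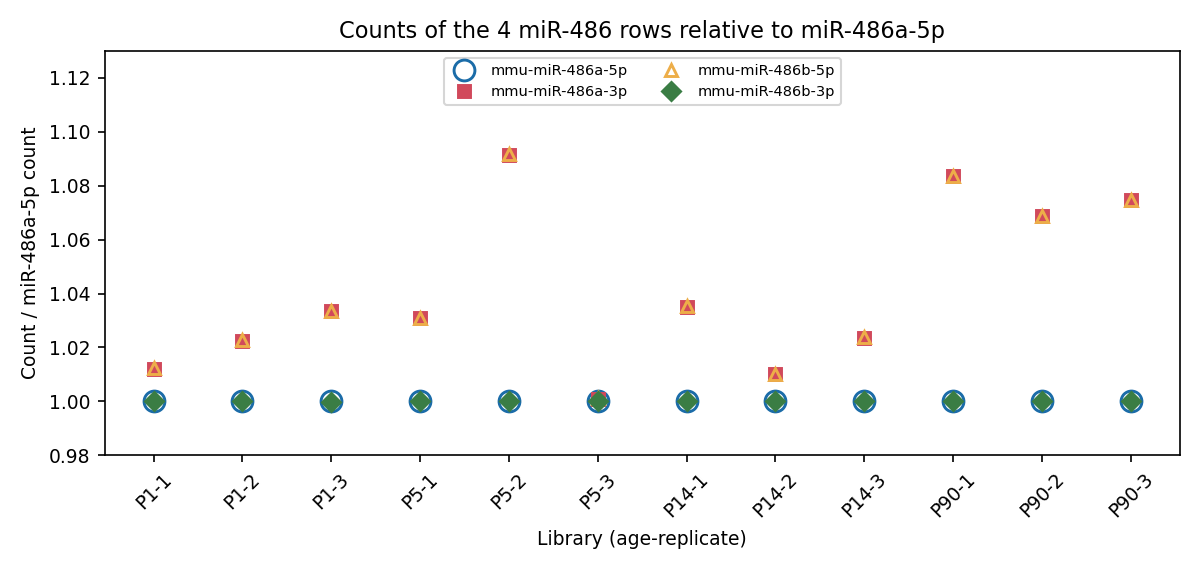
Count of each miR-486 product divided by the miR-486a-5p count (y axis) in each of the 12 libraries (x axis, age and replicate). The miR-486b-3p diamonds lie on the miR-486a-5p circles at 1, and the miR-486b-5p triangles lie on the miR-486a-3p squares, above 1 in all libraries.

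Levels of miR-486 did not differ beyond the spread between libraries in the first week, and were several-fold higher at P14. The counts of miR-486a-5p were 25825, 26264 and 26714 at P1 and 38261, 23112 and 29637 at P5. They were 134763, 159923 and 103406 at P14, although these libraries were the shallowest, and 81656, 68399 and 44242 at P90, where libraries were the deepest. All 3 P14 libraries were above every library of the other ages in raw counts, and the P1 counts lay inside the P5 range.

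On the normalized scale, miR-486a-5p stood at 684, 606 and 636 CPM at P1 and at 979, 554 and 670 CPM at P5. It stood at 3711, 3941 and 3614 normalized CPM at P14 and at 4856, 3627 and 3685 at P90. The ages thus fell into a low pair, P1 and P5, and a high pair, P14 and P90, whose libraries overlapped within each pair and not between them. The lowest P14 library was 3.69 times the highest P5 library. The means were 642 ± 39.2 (P1), 734 ± 220 (P5), 3755 ± 168 (P14) and 4056 ± 694 (P90) normalized CPM (SD, n = 3).

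In CPM of the library total, the order at the later ages was different. miR-486a-5p was at 1009 ± 19.0 CPM at P1 and 939 ± 286 at P5, then at 5827 ± 881 at P14, and at 1354 ± 481 in adults (SD, n = 3). On this scale the P90 libraries, at 910 to 1865 CPM, overlapped those of both P1 and P5, and P14 alone stood apart. Its share of all counts differed across the 4 ages by an exact permutation test over the 15400 partitions of the libraries (2-sided, p = 0.00727, the same after Benjamini-Hochberg adjustment over 3 such tests). The counting error was small beside the spread between libraries, since the 95% Wilson interval of a miR-486 share reached at most 0.00334 percentage points to a side.

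The share at P90 depended on whether the miR-1 counts were part of the total. With miR-1a-3p and miR-1b-5p left out of the totals, miR-486a-5p made up 0.162% of the remaining counts at P1 and 0.171% at P5, compared with 0.840% at P14 and 0.748% at P90. The P90 libraries then ranged from 0.620 to 0.914% and overlapped the P14 range of 0.773 to 0.896%. By rank, the miR-486 products were between 93 and 98 among all rows at P1, 76 and 109 at P5, 31 and 34 at P14, and 25 and 31 at P90.

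**Figure D2:**
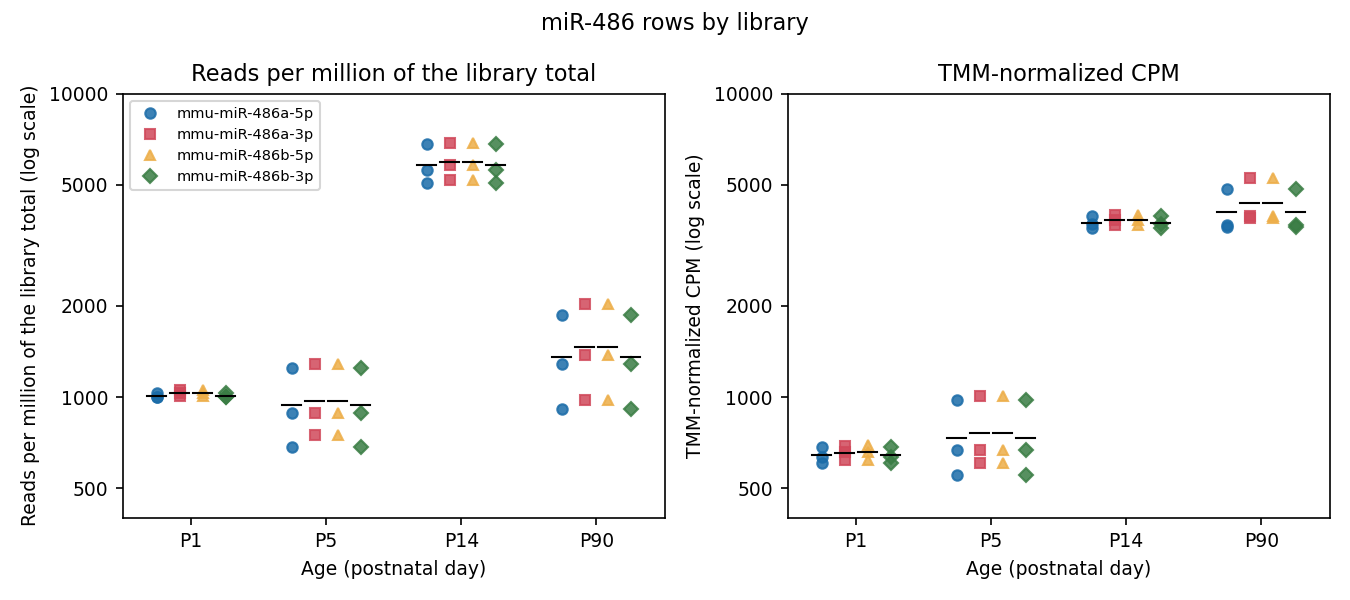
Levels of the 4 miR-486 products at each age, in CPM of the library total (left) and as TMM-normalized CPM (right), on log axes. Points are libraries (n = 3 per age) and bars are means. P14 is above P1 and P5 on both scales, and P90 is near P14 in the right panel only.

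Differences were tested with edgeR's quasi-likelihood F-test in a single model of all 12 libraries and 809 miRNAs, with Benjamini-Hochberg adjustment (Padj). All 4 miR-486 products differed across the ages, miR-486a-5p with Padj = 1.0e-09, where 72.4% of all miRNAs did. From P1 to P5, 0 of 4 products were called higher by edgeR, 0 at an unadjusted p under 0.05 and 0 by DESeq2, and 2.72% of all miRNAs were called higher. The log2 fold change (log2FC) of miR-486a-5p was 0.19 ± 0.18 (SE, Padj = 0.689), with a 95% interval from -0.19 to 0.58.

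From P5 to P14, all 4 products rose, among the 18.0% of miRNAs called higher. The log2FC of miR-486a-5p was 2.35 ± 0.19 (edgeR Padj = 1.6e-07), a 5.11-fold increase with a 95% interval of 3.87 to 6.77. The 4 products took ranks 16 to 20 of 809 by log2FC at this step, at which the median miRNA changed by -0.07. The increase was called under all 22 alternatives for miR-486a-5p, with log2FC from 1.31 to 3.35.

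From P14 to P90 no product was called in the model of all 12 libraries with TMM scaling, where 22.4% of miRNAs were called higher and 36.7% lower. An unadjusted p under 0.05 was reached by 0 of 4 products. The log2FC was 0.11 ± 0.18 for miR-486a-5p (edgeR Padj = 0.618, 95% interval -0.27 to 0.50) and 0.19 for miR-486a-3p (Padj = 0.381). The median miRNA moved by -0.55 at this step. The call and the direction differed between settings. With only the 2 ages in the fit, 4 of 4 products were called higher under TMM scaling (miR-486a-5p by 0.41, edgeR Padj = 0.019), and without P5 replicate 2, 2 of 4 were (miR-486a-3p by 0.41, Padj = 0.044). miR-486a-5p was called higher by 0.47 with relative log expression (RLE) factors and by 1.69 with upper-quartile factors, and DESeq2 called 4 of 4 products higher. With library totals alone it was called lower, with a log2FC of -2.11.

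Across wider spans the high pair was again above the low pair. Between P1 and P14, miR-486a-5p rose by a log2FC of 2.55 (edgeR Padj = 3.7e-08), and 20.3% of miRNAs were called higher. It rose by 2.47 from P5 to P90 (Padj = 9.0e-09; 24.8% called higher) and by 2.66 ± 0.19 from P1 to P90 (Padj = 3.5e-09; 25.2% called higher). These comparisons share libraries with the consecutive steps. With library totals alone, the edgeR log2FC of miR-486a-5p was 0.53 (Padj = 0.055) from P5 to P90 and 0.42 (Padj = 0.11) from P1 to P90. Neither was called for miR-486a-5p, while 2 of the 4 products were called from P5 to P90. With upper-quartile factors the values were 4.32 and 4.55, and with the GC trend removed they ran from 1.34 to 3.71 and from 1.50 to 3.94, all called.

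**Figure D3:**
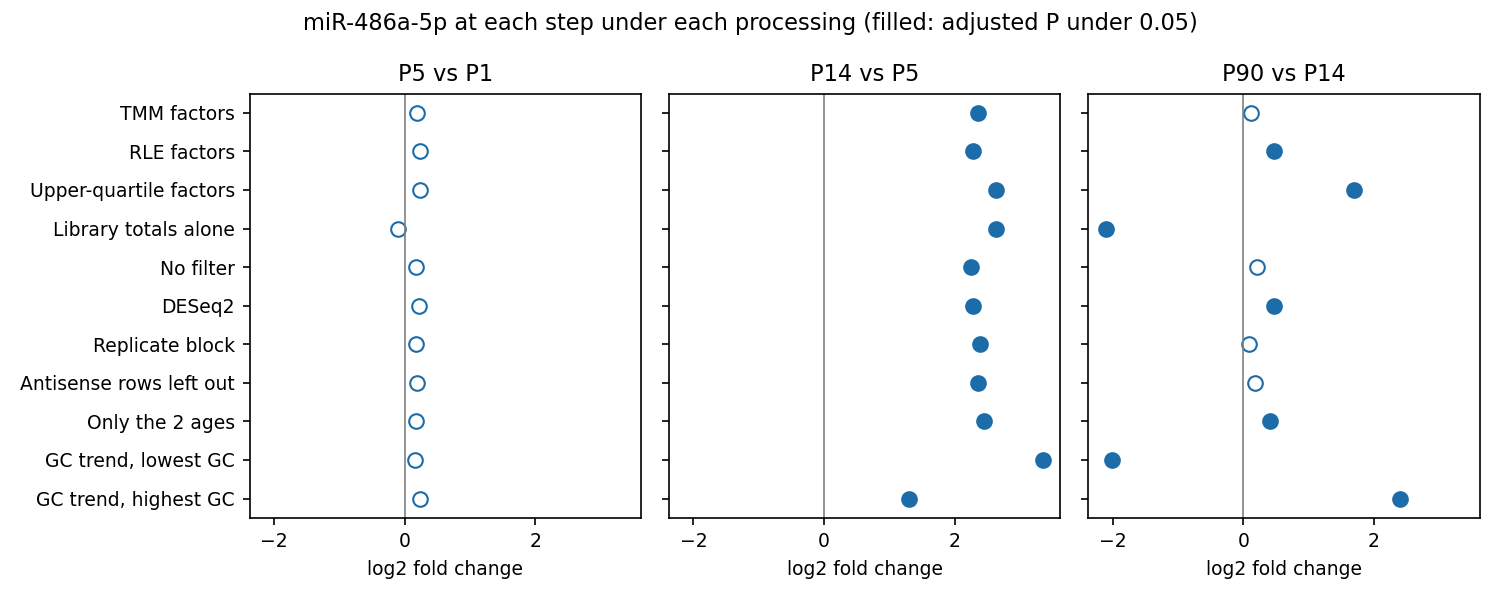
log2FC of miR-486a-5p (x axis) for the 3 consecutive steps under TMM scaling and 10 alternatives (y axis). Filled points have an adjusted P under 0.05. The P14 versus P5 values are all positive and filled, whereas the P90 versus P14 values lie on both sides of 0.

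Base composition moved with age in these libraries. Among 309 miRNAs, the log2 deviation of a miRNA from its mean level changed by 0.363 to 0.542 per 10 points of GC content in the P14 libraries and by -0.354 to -0.551 in the P90 libraries, whereas the P1 and P5 libraries lay between -0.022 and 0.065. With this trend removed and the miR-486 products set at the lowest GC content among these miRNAs, the P14 versus P5 log2FC was 3.35. Set at the highest, it was 1.31 (edgeR Padj = 7.4e-06), so the increase at P14 was called at either end. The P90 versus P14 value ran from -2.01 to 2.40 over the same range.

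Because miR-486 is abundant in red blood cells, it was compared with 6 miRNAs of these cells. miR-451a and the 2 arms of miR-144 come from neighboring hairpins on chromosome 11 and are the defining markers, while miR-16-5p, miR-92a-3p and miR-25-3p are abundant in red cells and in many other cells. From P5 to P14, 1 of the 6 rose, 3 fell and 2 did not pass the test by edgeR, beside 18.0% of all miRNAs called higher and 26.3% called lower. The median log2FC of the 6 was -0.34, against -0.07 for all miRNAs. No marker was at 0 at any age. Their summed level was 4037 to 4396 normalized CPM at P5 and 4670 to 4917 at P14, most of it from the 3 broadly expressed members.

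miR-451a stood at 316, 245 and 280 normalized CPM at P5 and at 216, 144 and 168 at P14. Every P14 library was thus below every P5 library on this scale, the opposite order to miR-486a-5p. In CPM of the library total the 2 ages overlapped, with miR-451a at 302 to 402 at P5 and 236 to 326 at P14. The log2FC was -0.67 (edgeR Padj = 0.018), and it was no longer called with upper-quartile factors (-0.39, Padj = 0.18), library totals alone (-0.41, Padj = 0.21) or the GC trend removed (-0.21, Padj = 0.42). miR-144-3p fell by 3.03 and miR-144-5p by 2.11 on the log2 scale (Padj = 9.5e-06 and 5.5e-05), and with the GC trend removed the values were -2.31 and -1.41, both still called. Of the others, miR-92a-3p rose by a log2FC of 0.44 (Padj = 0.00642), but was not called with the GC trend removed (0.05, Padj = 0.74). The log2FC of miR-16-5p and miR-25-3p were 0.14 and -0.0009. miR-16-5p was also called higher with upper-quartile factors (0.42, Padj = 0.013) and library totals alone (0.40, Padj = 0.046).

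A ratio of 2 counts in the same library does not depend on the scaling, but the GC trend was not removed from it. With that trend removed, the P14 versus P5 log2FC was -0.21 for miR-451a. For miR-486a-5p it was 3.35 at the lowest and 1.31 at the highest GC content. The ratio of miR-486a-5p to miR-451a counts was 2.98, 2.74 and 2.77 at P1 and 3.10, 2.26 and 2.39 at P5. It was 17.2, 27.3 and 21.5 at P14 and 20.2, 8.05 and 13.3 at P90. All 6 libraries of the later ages were above all 6 of the earlier ones, and P14 and P90 overlapped. The ratio differed across the ages by the exact permutation test on its log2 values (2-sided, p = 0.000909, 0.00273 adjusted). Under TMM scaling, 3 of the 6 red cell miRNAs were called lower at P14 than at P5, beside 26.3% of all miRNAs. Another 1 was called higher, beside 18.0% of all miRNAs. The calls of miR-451a and miR-16-5p differed under other scalings, and the rise of miR-92a-3p was not called with the GC trend removed.

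**Figure D4:**
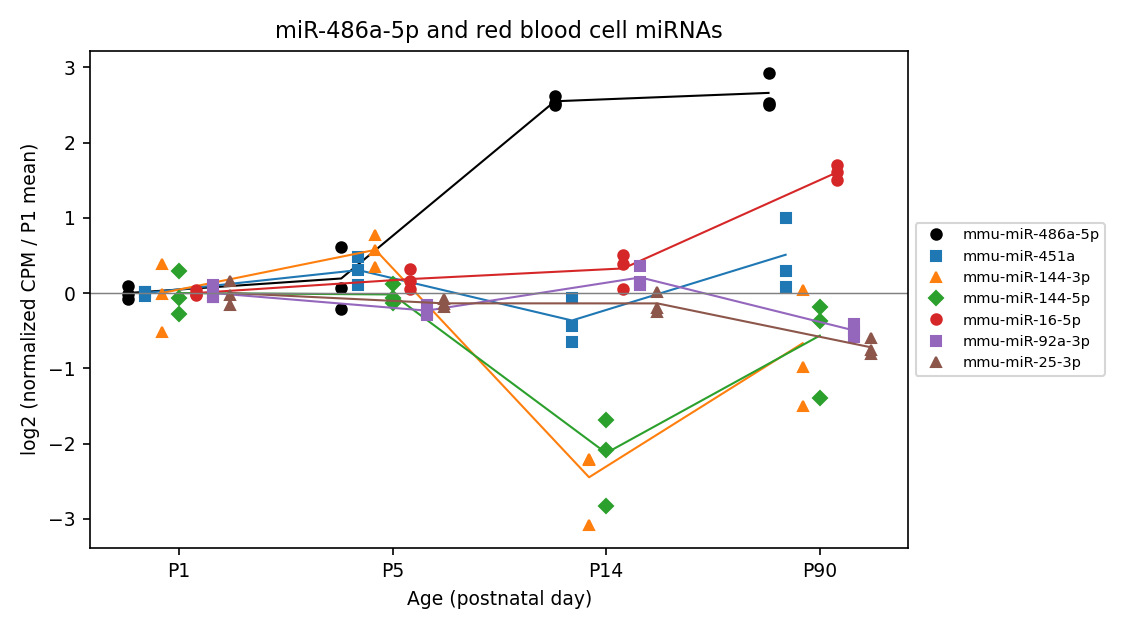
log2 of normalized CPM relative to the P1 mean (y axis) at each age (x axis) for miR-486a-5p and 6 red blood cell miRNAs. Points are libraries and lines join the log2 of the age means. At P14 miR-486a-5p lies above 2, while miR-144-3p and miR-144-5p lie below -1 and miR-451a below 0.

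Between P14 and P90, 4 of the 6 red cell miRNAs were called higher and 2 lower under TMM scaling, beside 22.4% of all miRNAs called higher and 36.7% called lower. The log2FC was 0.87 for miR-451a, 1.79 for miR-144-3p, 1.56 for miR-144-5p and 1.28 for miR-16-5p (largest edgeR Padj = 0.00236), and miR-92a-3p and miR-25-3p were called lower at -0.70 and -0.58, which turned to 0.87 and 0.99 with upper-quartile factors. With the GC trend removed, miR-451a (-0.16, Padj = 0.48), miR-144-3p (0.18, Padj = 0.63) and miR-144-5p (0.0034, Padj = 1) were no longer called. With library totals alone, the 4 positive values turned negative (-1.34, -0.41, -0.69 and -0.96), as that of miR-486a-5p did. The part of blood in the P90 level of miR-486 was not tested. Markers of other cells also shifted at P14. Of 4 white blood cell miRNAs, 1 rose and 2 fell from P5 to P14 under TMM scaling, at which 18.0% of all miRNAs were called higher and 26.3% lower. The log2FC was -2.29 for miR-142a-3p and -0.79 for miR-142a-5p, and miR-223-3p was not called (-0.11). With the GC trend removed, miR-142a-5p was no longer called (-0.19, edgeR Padj = 0.39). The one that rose was miR-150-5p, a miRNA of mature lymphocytes, with 20.2, 25.7 and 25.2 normalized CPM at P5 and 109, 109 and 99.8 at P14. Its log2FC was 2.16 (edgeR Padj = 2.1e-07), beside 2.35 for miR-486a-5p, and it was also higher at P5 than at P1 (1.09, Padj = 0.00222). With library totals alone, its difference between P1 and P5 was not called (0.79, Padj = 0.077). The part of these cells in the P14 level of miR-486 was not tested. Of the 2 arms of miR-126a, an endothelial miRNA, miR-126a-3p rose by a log2FC of 0.55 and miR-126a-5p was lower at -0.84.

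The level of miR-486 was set beside those of 7 muscle miRNAs, which regulate myoblast proliferation, differentiation and fiber type. One of them, miR-208a-3p, was too low to be tested. From P5 to P14, 1 of the 6 tested members rose, 3 fell and 2 did not pass the edgeR test, with a median log2FC of -0.53, beside the same 18.0% and 26.3% of all miRNAs. The member that rose was miR-133a-3p, a regulator of myoblast proliferation, by a log2FC of 1.65 (Padj = 4.0e-06). miR-1a-3p, which is transcribed together with miR-133a and promotes differentiation, fell by 0.80 (Padj = 0.00728), and miR-499-5p and miR-208b-3p, which are encoded in slow myosin genes, had log2FC of -2.86 and -1.74 (Padj = 5.9e-05 and 0.00151). miR-206-3p, a miRNA of developing and regenerating muscle, had a log2FC of 0.03 at this step, which reversed to -0.04 with RLE factors. From P1 to P90, 2 of the 6 rose, 3 fell and 1 did not pass under TMM scaling, beside 25.2% of all miRNAs called higher and 41.2% called lower. The 1 that did not pass, miR-133b-3p, was called higher with RLE factors (0.615, edgeR Padj = 0.0096) and lower with library totals alone (-2.04, Padj = 2.2e-07).

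The profile over the 12 libraries was compared with that of 202 miRNAs of at least 100 mean normalized CPM, by the root mean square difference of centered log2 levels (pseudocount 0.5). The libraries share depth and base composition effects across miRNAs, so the measure is descriptive. The closest were miR-365-3p at 0.33, miR-133a-3p at 0.47, miR-378d at 0.48, miR-149-5p at 0.48 and miR-378c at 0.52. miR-451a ranked 79 at 1.38 and miR-1a-3p 86 at 1.46.

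miR-365-3p, the closest, had 50.5, 52.0 and 46.9 normalized CPM at P1 and 80.9, 62.2 and 76.6 at P5. It had 225, 225 and 196 at P14 and 331, 293 and 325 at P90. It was called higher at every step, with log2FC of 0.56, 1.56 and 0.55 (edgeR Padj = 0.039, 5.9e-07 and 0.0032). With the GC trend removed, the first step was not called (0.52, Padj = 0.12), the second was 2.23 and the last was called lower (-0.87, Padj = 0.00057). With library totals alone, the first step was again not called (0.25, Padj = 0.54), and the last was also lower (-1.69). All 5 similar miRNAs rose from P5 to P14, with log2FC from 1.20 for miR-378c to 2.01 for miR-378d under TMM scaling. At this step 18.0% of all miRNAs were called higher. The 5 were chosen for likeness over these same libraries, so the shared rise follows from the choice and is no separate result. The differences of their log2FC from the 2.35 of miR-486a-5p were not tested.

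The ratio of miR-486a-5p to miR-133a-3p showed how far the 2 profiles parted. It was 0.113, 0.121 and 0.121 at P1 and 0.111, 0.0780 and 0.0747 at P5. It was 0.173, 0.149 and 0.120 at P14 and 0.0692, 0.0838 and 0.0540 at P90. The P14 libraries were above those of P5 and P90 and overlapped with P1, and the ratio differed across the ages by the exact permutation test (2-sided, p = 0.0024, 0.0036 adjusted). The pairs of ages were not tested singly, and the GC trend was not removed from this ratio. From P14 to P90, miR-133a-3p had a log2FC of 1.22 under TMM scaling and -1.02 with library totals alone.

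**Figure D5:**
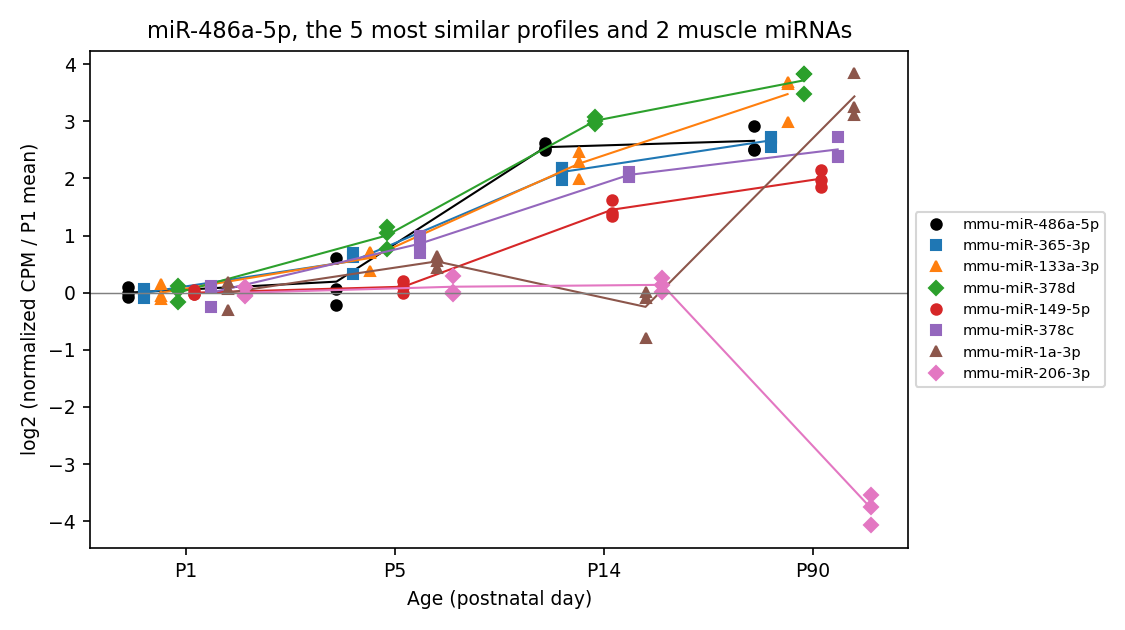
log2 of normalized CPM relative to the P1 mean (y axis) at each age (x axis) for miR-486a-5p, the 5 miRNAs with the most similar profile, and miR-1a-3p and miR-206-3p for contrast. Points are libraries and lines join the log2 of the age means. The 6 similar profiles are all higher at P14 than at P5, which follows from choosing the 5 for likeness over these libraries. From P14 to P90, miR-486a-5p has the smallest change among them under TMM scaling (log2FC of 0.11). With library totals alone it has the largest (-2.11), and these differences were not tested.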

How the data were processed

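Small RNA libraries from quadriceps of wild-type C57BL/6J mice (P1, P5, P14 and P90; n = 3 each, grouped by sample title) were analysed. The deposited values are raw counts per mature miRNA. The authors trimmed reads with cutadapt 1.18 and kept 10 to 35 nt, aligned them to GRCm38 with Bowtie2 2.4.1 and counted them with featureCounts 2.0.1 on miRBase 22. Options for strand, overlap and multiple alignments are not given in the sources used here. The counts carry no molecular identifiers, so the Wilson intervals of shares cover counting error only. Intervals of fold changes come from the standard errors of the edgeR fit, which include the spread between libraries. Counts were fitted with edgeR 4.0.16 in R 4.3.3 (filterByExpr, TMM, quasi-likelihood F-tests on 12 libraries, Benjamini-Hochberg over 809 miRNAs, threshold 0.05), after tests on simulated counts. DESeq2 1.42.0, other scalings, no filter, a replicate block and omission of each library were the alternatives, together with a GC trend chosen after seeing the data. Named miRNAs were the 4 products, the lists and the 5 closest profiles. The 4 products and the lists were chosen with earlier results of these data known. Replicates differed by a chi-square of 179 to 1195 per degree of freedom. Gene models of GENCODE vM39 gave intron positions only, and coordinates came from RefSeq on GRCm38.p6.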

Additional observations from a re-analysis of the deposited data

How the results depend on the processing

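Over 27 settings, 610 of 659 alternatives of 38 results kept direction and side of the threshold, 7 lost a call, 22 gained one and 20 changed sign. Most of these results are the 4 products and their summed count, which are nearly a single measurement, so the tally does not count independent results. For P90 versus P14, miR-486a-5p had a log2FC of 0.47 with RLE factors (edgeR Padj = 0.031), 1.69 with upper-quartile factors, 0.46 with DESeq2, 0.41 with only the 2 ages in the fit, 2.40 and -2.01 with the GC trend removed at the highest and lowest GC content, and -2.11 with library totals alone, all called. miR-486b-3p matched it at -2.01 and -2.11, miR-486a-3p and miR-486b-5p had -1.93 and -2.03, and the summed locus count had -2.08 with library totals. With library totals alone, P5 versus P1 was -0.10 for miR-486a-5p and miR-486b-3p, -0.0845 for miR-486a-3p, -0.0846 for miR-486b-5p and -0.0939 for the locus count, P90 versus P5 was 0.53 and P90 versus P1 0.42 for miR-486a-5p. The locus count then had 0.46 for P90 versus P1. Leaving out 1 library at a time gave miR-486a-5p -0.075 to 0.36 for P5 versus P1, 2.19 to 2.58 for P14 versus P5, -0.0263 to 0.34 for P90 versus P14, 2.45 to 2.55 for P14 versus P1, 2.29 to 2.73 for P90 versus P5 and 2.47 to 2.89 for P90 versus P1. The negative values came without P5 replicate 1 (miR-486a-3p and miR-486b-5p at -0.0477, miR-486b-3p at -0.0749) and without P90 replicate 1 (miR-486a-5p and miR-486b-3p at -0.0263). Without P5 replicate 2, miR-486a-3p and miR-486b-5p were called for P90 versus P14 (0.41, Padj = 0.044). The cause was not tested. Of 18 same-numbered library pairs, 7 had correlated deviations above 0.1. Differently numbered pairs also passed this value, such as P1 replicate 2 and P5 replicate 1 at 0.42, so it cannot decide whether numbers paired libraries. The replicate block gave 0.17, 2.39 and 0.09 for the 3 consecutive steps and changed no call for the 4 products. The planned GC correction at the products' own GC content was not run. Counting error at these depths was smaller than the spread between libraries.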
